A study of Caenorhabditis elegans with 6 samples.

Results

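The SCP-like secreted genes scl-1, scl-2, scl-3, scl-19 and scl-27 of Caenorhabditis elegans are described here, taken by gene symbol from a table of 47656 genes. The table lists 26 genes with an scl symbol, and with the related genes lon-1, vap-1 and vap-2 the family as counted here has 29. The 5 genes count as chosen by their measured difference between ilimaquinone and vehicle, since results of these libraries were known when they were picked; no threshold is recorded. Their differences between the groups are therefore given as a description and without a p-value. All 5 passed the filter on low counts, each with all 3 libraries of both groups above the filter's cutoff.

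Poly(A) RNA of whole wild-type worms was sequenced from 6 libraries, 3 from vehicle-treated animals and 3 from animals treated with ilimaquinone, a sesquiterpenoid quinone made by marine sponges. From the L4 larval stage all animals were held for 11 days at 20 °C in complete S-Basal. Both groups received the antibiotic ampicillin at 100 µg/mL and FUDR at 200 µM, and the treated group also received 100 µM ilimaquinone. FUDR blocks DNA synthesis and thereby the production of offspring, so neither group stands for animals reproducing normally. Nothing in the labels states whether replicates were separate cultures. The errors and p-values given here therefore measure the spread between these samples, which may be technical.

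SCP-like proteins belong to the CAP superfamily, named for cysteine-rich secretory proteins, antigen 5 and pathogenesis-related 1 proteins. They are mostly secreted, and many parasitic nematodes release related proteins into their hosts. In C. elegans the best known member is scl-1, which was described as a gene that the long-lived daf-2 insulin receptor mutants need for their full lifespan and whose transcript is raised in them through the FOXO factor DAF-16. Of the relatives, lon-1 restrains body length downstream of the Sma/Mab TGF-beta pathway, and vap-1 encodes a venom-allergen-like protein made by sheath glia of the head sense organs. No specific function is given here for scl-2, scl-3, scl-19 or scl-27.

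The genes lie in 3 places on 2 chromosomes (deposited positions, build WBcel235). The genes scl-1 (chromosome IV, 13056326 to 13057351), scl-2 (chromosome IV, 13057678 to 13059062) and scl-3 (chromosome IV, 13059584 to 13060695) are direct neighbours, with 326 bases between the first pair and 521 between the second. They sit in a row of 11 family genes within 25.4 kb, where the 10 genes with an Ensembl entry are all on the plus strand. On chromosome V, scl-27 (400021 to 401602) and scl-19 (18731991 to 18732772) stand far apart. Each of the 5 genes is on the plus strand and has 4 exons in Ensembl release 115, and their longest coding regions span 200 to 211 codons. The deposited start and end equal Ensembl's for 4 of the 5 genes, and for scl-2 they lie within 1000 bases. No deposited locus of the 5 genes overlaps another listed gene. The sources used here do not say how reads matching several family members were counted, so levels of close paralogs are uncertain to that extent.

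The libraries held 32155192 to 39244786 estimated counts each. Vehicle replicate 1 stood apart from the rest, with a score of -98.8 on principal component 1 of the log2 CPM values, against -26.5 to 54.1 for the other 5 libraries. It also had the most reproductive RNA: 12 oocyte and germline markers summed to 1695 CPM there. They summed to 491 and 579 CPM in vehicle replicates 2 and 3, and to 353 to 472 CPM in the treated libraries. The 10 sperm markers summed to 24.5 to 111 CPM in vehicle and 10.3 to 24.1 CPM with ilimaquinone, and the 6 vitellogenins to 1651 to 7049 and 668 to 1165 CPM. All 12 oocyte, 10 sperm and 6 yolk genes had a negative log2 fold change, as had 8588 of all 16506 tested genes. None was at 0 in all libraries. At an edgeR adjusted p under 0.05, 0 oocyte, 1 sperm (spe-38) and 0 yolk genes were lower. At an unadjusted p under 0.05 there were 8, 9 and 5. Vehicle replicate 1 weighs on these signs. In puf-8 it had 59.6 CPM, while vehicle replicates 2 and 3 lay below the ilimaquinone mean of 28.4 CPM. Fold changes of these lists without vehicle replicate 1 are not given here. The 8 pharynx and gland markers summed to 505 to 627 CPM in vehicle and 715 to 787 CPM with ilimaquinone. This sum too separated the groups, but most of it was myo-2, at 347 ± 57.2 against 494 ± 20.0 CPM. Taken singly, 2 of the 8 were higher and 1 lower without overlap, against 30.8% of all tested genes in either direction. The lower one was phat-3, at 32.8 ± 5.55 against 21.8 ± 0.74 CPM. Summed markers of intestine, hypodermis, body wall muscle and neurons overlapped between the groups, intestine for example at 2696 to 3519 against 2713 to 2999 CPM. For hypodermis the overlap came from vehicle replicate 1, at 720 CPM. Vehicle replicates 2 and 3 had 341 and 293 CPM there, below the 361 to 515 CPM with ilimaquinone. Its 8 genes went both ways, 4 with a positive and 4 with a negative log2 fold change. In whole worms fewer cells of a type and less RNA per cell cannot be told apart. The part these markers have in the values that follow was not tested. Values without vehicle replicate 1 are given beside each of the 5 genes.

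The gene scl-19 was the clearest of the 5. It had 64.4, 61.5 and 43.7 CPM (counts scaled to library size with TMM factors) in vehicle replicates 1 to 3, and 277, 321 and 378 CPM in ilimaquinone replicates 1 to 3. The groups did not overlap, and the lowest ilimaquinone library stood 4.31 times above the highest vehicle library. The means were 56.5 ± 11.2 and 325 ± 50.3 CPM (SD, n = 3 per group), a 5.75-fold difference. The log2 fold change was 2.52 ± 0.19 (SE, edgeR), and it was 2.63 without vehicle replicate 1. With 1360 to 13778 counts per library, counting error is small beside the spread between libraries.

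The gene scl-27 had a fold change of similar size at a far lower level. Its counts were 25, 12 and 10 in vehicle replicates 1 to 3 and 101, 112 and 115 in ilimaquinone replicates 1 to 3. As CPM these were 0.715, 0.355 and 0.321 against 2.62, 3.46 and 3.15, so the groups did not overlap. The means were 0.464 ± 0.219 and 3.08 ± 0.429 CPM, and the log2 fold change was 2.71 ± 0.38 (SE, edgeR). Within vehicle, replicate 1 had 2.23 times the level of replicate 3, and without replicate 1 the log2 fold change was 3.17.

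**Figure D1:**
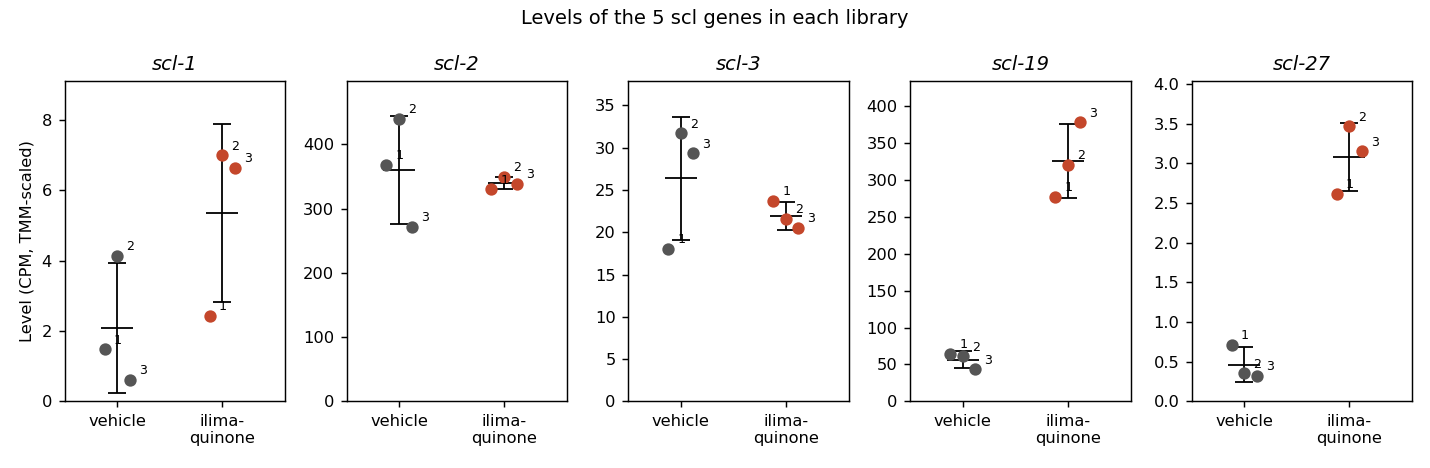
Levels of scl-1, scl-2, scl-3, scl-19 and scl-27 in CPM (TMM-scaled, y axis, each panel with its own scale from 0) in the 3 vehicle and 3 ilimaquinone libraries (x axis). Points are libraries with their replicate number, bars are mean ± SD. The groups are apart for scl-19 (43.7 to 64.4 against 277 to 378 CPM) and scl-27 (0.321 to 0.715 against 2.62 to 3.46 CPM) and overlap for the other 3 genes.

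The gene scl-1, the lifespan gene of the family, varied most of the 5 within groups. It had 1.49, 4.14 and 0.61 CPM in vehicle replicates 1 to 3, from 52, 140 and 19 counts. With ilimaquinone it had 2.44, 6.99 and 6.63 CPM, from 94, 226 and 242 counts. The groups overlapped: ilimaquinone replicate 1 lay below vehicle replicate 2. Within vehicle the highest library had 6.78 times the level of the lowest, against 2.87 times within ilimaquinone. The means were 2.08 ± 1.84 and 5.35 ± 2.53 CPM, and the log2 fold change of 1.36 ± 0.71 (SE, edgeR) was under 2 standard errors. It ranged from 0.92 without vehicle replicate 3 to 2.32 without vehicle replicate 2, and it was 1.16 without vehicle replicate 1.

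The gene scl-2, next to scl-1, was far more abundant and had nearly equal group means, 360 ± 84.5 and 339.5 ± 9.76 CPM (SD, n = 3 per group). It had 368, 440 and 272 CPM in vehicle replicates 1 to 3 and 330, 350 and 339 CPM with ilimaquinone, all 3 of which lay inside the vehicle range. The log2 fold change was -0.08 ± 0.17 (SE, edgeR). It was -0.07 without vehicle replicate 1 and changed sign, to 0.07, without vehicle replicate 2. Of the 2 annotated transcripts, NM_070102 held 99.7% to 100.0% of the gene's counts in every library, and the shorter NM_001276874 had 1 to 36 counts.

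The gene scl-3, next in the row, had means of 26.4 ± 7.29 and 22 ± 1.64 CPM. It had 18.1, 31.7 and 29.4 CPM in vehicle replicates 1 to 3 and 23.8, 21.6 and 20.5 CPM with ilimaquinone. The groups overlapped, with vehicle replicate 1 the lowest of all 6 libraries and the other vehicle libraries the highest. The log2 fold change was -0.26 ± 0.22 (SE, edgeR). Without vehicle replicate 1 it was -0.48, since the lowest vehicle value was then gone.

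The groups of scl-19 and scl-27 did not overlap, as was the case in this direction for 15.8% of all tested genes and in either direction for 30.8%. Nothing is read from these shares, because the 5 genes were chosen with this difference known. Under 14 other settings the log2 fold change of scl-19 ran from 2.36 to 2.63. That of scl-27 ran from 1.73, on log2(TPM + 1), to 3.17, without vehicle replicate 1.

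**Figure D2:**
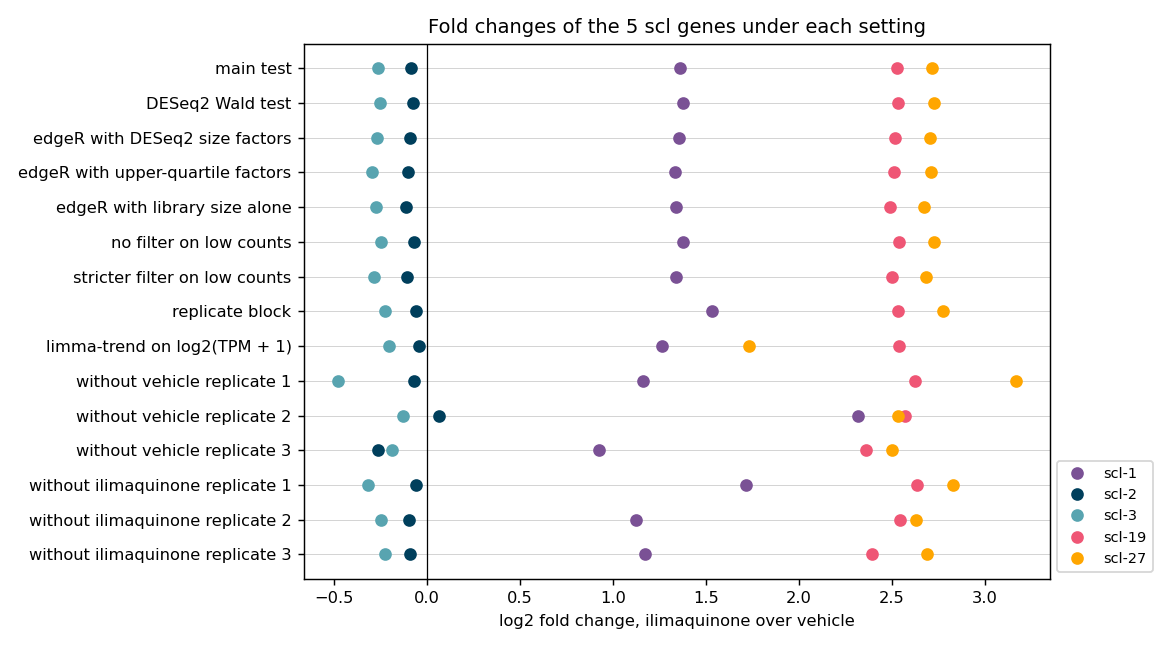
Log2 fold change of ilimaquinone over vehicle (x axis) for scl-1, scl-2, scl-3, scl-19 and scl-27 in the main test and under 14 other settings (y axis); each point is 1 gene in 1 setting. The values of scl-19 stay between 2.36 and 2.63, those of scl-1 spread from 0.92 to 2.32, and those of scl-2 lie on both sides of 0.

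Libraries of the vehicle group were less alike than those of the ilimaquinone group for all 5 genes. The coefficient of variation of scl-2 was 23.5% in vehicle and 2.88% with ilimaquinone, and that of scl-3 was 27.7% and 7.46%. For scl-1 it was 88.4% and 47.3%, for scl-27 47.1% and 13.9%, and for scl-19 19.8% and 15.5%. The same held for 81.5% of all tested genes, with medians of 22.2% in vehicle and 9.91% with ilimaquinone. The wider vehicle spread was therefore common to most genes in these libraries.

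Levels were compared between genes per length, as the TPM values that the authors deposited, which correct for transcript length. In the vehicle libraries the order by mean was scl-2 at 610 ± 164 TPM, scl-19 at 110 ± 30.6, scl-3 at 41.3 ± 8.52, scl-1 at 3.27 ± 2.79 and scl-27 at 0.688 ± 0.418 TPM (SD, n = 3). Neighbours in this order did not overlap, except for scl-1 and scl-27 across libraries. Within each vehicle library the order was the same. With ilimaquinone scl-19 stood at 631 ± 96.9 TPM and scl-2 at 577 ± 24.1 TPM, and these ranges overlapped. Then came scl-3 at 35.3 ± 2.54, scl-1 at 8.54 ± 4.11 and scl-27 at 4.54 ± 0.693 TPM, where the last pair again overlapped.

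The ratio of scl-19 to scl-2 changed accordingly. It was 0.20, 0.16 and 0.18 in TPM in vehicle replicates 1 to 3 and 0.96, 1.05 and 1.27 in ilimaquinone replicates 1 to 3. By TPM, scl-2 ranked 166 to 279 among all 47656 listed genes in the vehicle libraries and 220 to 233 with ilimaquinone. In the same rankings scl-19 moved from 956 to 1554 in vehicle to 183 to 249 with ilimaquinone. The rank of scl-27 was 15041 to 16693 in vehicle and 10240 to 10869 with ilimaquinone. Of the listed genes 27237 had a count in any library, and genes at 0 TPM ranked 22317 to 22850 in the vehicle libraries. The 5 genes summed to 865, 886 and 543 TPM in vehicle and to 1136, 1289 and 1344 TPM with ilimaquinone, and they held 67.1% to 79.7% of the TPM of the 29 family genes. Of the 5-gene sum, scl-19 made up 12.9% to 16% in vehicle and 46.9% to 54.1% with ilimaquinone.

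**Figure D3:**
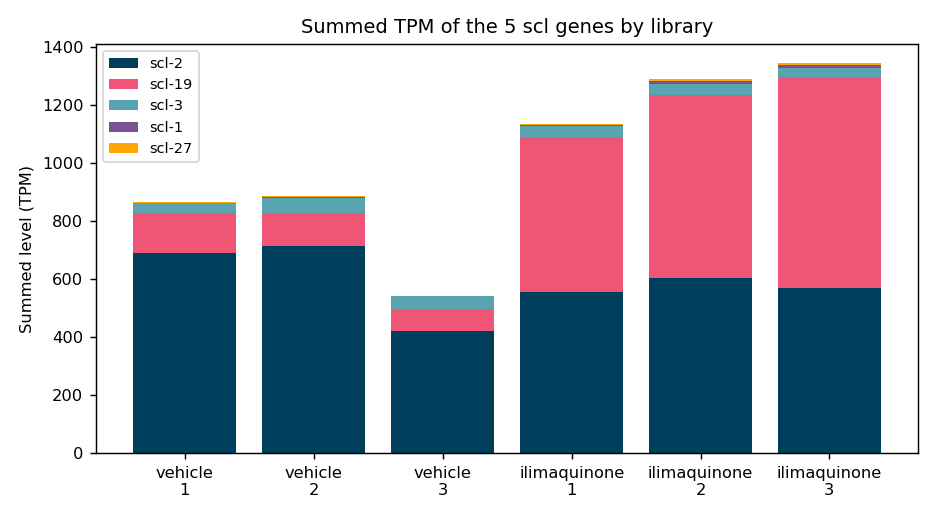
Summed TPM (y axis) of the 5 scl genes in each library (x axis), stacked by gene. The scl-19 segment grows from 77.5 to 138 TPM in vehicle to 533 to 727 TPM with ilimaquinone, while the scl-2 segment stays between 421 and 716 TPM in all 6 libraries.

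The row of scl genes on chromosome IV was mixed in level and in direction. A gene was called where its Benjamini-Hochberg adjusted p was under 0.05 in edgeR's quasi-likelihood test over all 16506 tested genes. Of the 11 family genes in the row 8 were tested, scl-1, scl-2 and scl-3 among them, and 0 were called, against 1.47% of all tested genes. At an unadjusted p under 0.05 there were 2, scl-5 and scl-11, against 21.9% of all tested genes, a share near the background. DESeq2 called 0, against 10.8% of all genes it tested. Beyond scl-1, scl-2 and scl-3, scl-5 stood at 18.5 ± 5.22 against 27.1 ± 2.98 CPM (log2 fold change 0.55 ± 0.22, edgeR adjusted p = 0.206). The gene scl-11 stood at 9.02 ± 1.28 against 13.7 ± 4.17 CPM (log2 fold change 0.60 ± 0.24, edgeR adjusted p = 0.216), with groups that did not overlap. The log2 fold changes of scl-6, scl-7 and scl-8 were 0.66 ± 0.51, -0.88 ± 1.18 and -1.05 ± 1.06, each within 2 standard errors of 0. Directly before scl-1 lies the pseudogene F49E11.8, with 3 counts in vehicle replicate 2 and none elsewhere. After scl-3 comes scl-4, listed as a pseudogene, with 2 counts in vehicle replicate 1 and none elsewhere. 

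**Figure D4:**
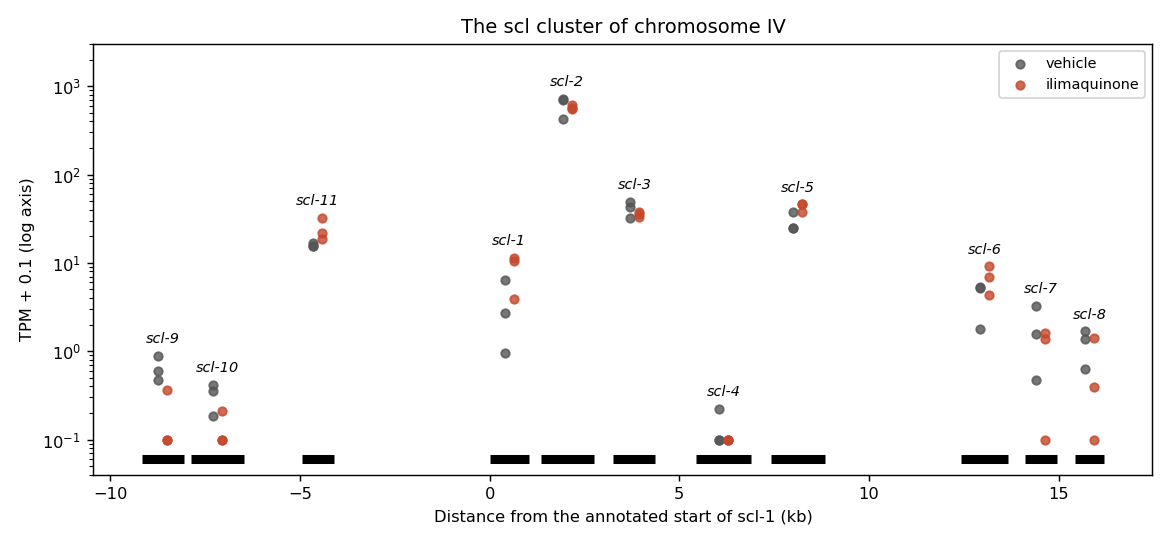
Level of each family gene in the chromosome IV row (TPM + 0.1, log axis) against distance from the annotated start of scl-1 in kb. Points are libraries, grey for vehicle and red for ilimaquinone, and black bars mark the loci. The gene scl-2 stands above the others in all 6 libraries, with scl-1 before it at 0.864 to 11.3 TPM and scl-3 after it at 32.1 to 48.8 TPM.

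The neighbours of scl-19 were also higher with ilimaquinone, to unequal extents. The aspartic protease gene asp-18 (chromosome V, 18730174 to 18731679) lies on the minus strand, with 311 bases between its locus and that of scl-19 on the plus strand, so that the annotated starts face each other. It had 94.4, 84.4 and 60.8 CPM in vehicle and 466, 515 and 566 CPM with ilimaquinone (log2 fold change 2.69 ± 0.18, edgeR adjusted p = 0.00455), and it was 2.83 without vehicle replicate 1. The ratio of asp-18 to scl-19 in TPM was 0.74 to 0.80 in vehicle and 0.81 to 0.91 with ilimaquinone, a shift far smaller than that of either gene. On the other side scl-20 (chromosome V, 18732798 to 18734481), on the minus strand, ends 25 bases from the end of scl-19. It had 4.92, 3.16 and 2.63 CPM in vehicle and 6.48, 10.1 and 8.36 CPM with ilimaquinone. Its groups did not overlap, but it was not called (log2 fold change 1.22 ± 0.30, edgeR adjusted p = 0.110), except by DESeq2 and without vehicle replicate 1, where edgeR's adjusted p was 0.0235. In TPM scl-20 was 0.045 to 0.067 of scl-19 in vehicle and 0.019 to 0.028 with ilimaquinone. The sources used here do not say whether counting used strand, so it is uncertain to which of the pair reads from the narrow stretch between them were assigned.

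The gene scl-27 lies between nhr-253, a nuclear hormone receptor gene, and srh-62, a chemoreceptor gene 85 bases away. The gene nhr-253 had 3 to 12 counts in vehicle and 7 to 18 with ilimaquinone (log2 fold change 0.66 ± 0.65, edgeR adjusted p = 0.561). The gene srh-62 had 3 counts in ilimaquinone replicate 3 and none elsewhere. The next tested gene, 10177 bases away, is dod-19, which stood at 219 ± 13.2 against 318 ± 5.38 CPM and rose (log2 fold change 0.54 ± 0.08, edgeR adjusted p = 0.0398); it was named after its values were seen. Without vehicle replicate 1 the log2 fold change of dod-19 was 0.55 and it was called, but its call was lost on leaving out any other library, with edgeR adjusted p from 0.0664 to 0.229.

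The rest of the family, 24 genes, gave no call in the main test. Of these 17 were tested in edgeR and 0 passed at an adjusted p under 0.05, against 1.47% of all tested genes. At an unadjusted p under 0.05 there were 7, against 21.9% of all tested genes, with 5 higher and 2 lower. DESeq2 called 4, scl-20, scl-21 and lon-1 higher and vap-1 lower, against 10.8% of all genes it tested. Without vehicle replicate 1 edgeR called scl-20 higher and scl-24 and vap-1 lower, where it called 2.68% of tested genes higher and 1.63% lower. These 24 are what the choice of the 5 left over, so their counts are not independent of that choice.

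Among them scl-21 (chromosome V, 19494762 to 19495687) had the largest positive log2 fold change, 1.84 ± 0.43 (edgeR adjusted p = 0.101). It had 10.5, 12.9 and 33.3 CPM in vehicle and 72.6, 57.1 and 73.2 CPM with ilimaquinone, so the groups did not overlap. It was called by DESeq2, by limma on TPM and in edgeR without vehicle replicate 3, the highest of its vehicle libraries (log2 fold change 2.52); without vehicle replicate 1 the log2 fold change was 1.54. The body-length gene lon-1 stood at 47.1 ± 8.80 against 69.0 ± 3.08 CPM (log2 fold change 0.55 ± 0.14, edgeR adjusted p = 0.124; 0.43 without vehicle replicate 1). The sheath glia gene vap-1 stood at 28.4 ± 13 against 12.4 ± 1.96 CPM (log2 fold change -1.20 ± 0.32, edgeR adjusted p = 0.129). Without vehicle replicate 1 the log2 fold change of vap-1 was -1.42 (edgeR adjusted p = 0.0435). The groups of lon-1 and vap-1 did not overlap.

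Across all 22 tested family genes, 10 had a positive and 12 a negative log2 fold change, from -1.84 for scl-15 to 2.71 for scl-27. Their median was -0.08, against -0.02 for all tested genes. The groups did not overlap for 6 genes that were higher and 1 that was lower, 7 of 22 in all. The shares of all tested genes were 15.8% higher and 30.8% in either direction. The 6 include scl-19 and scl-27, chosen with this difference known, so nothing is read from the count. In the rest of the family 4 of 17 were higher and 1 lower without overlap. The family median changed sign with single libraries, to 0.09 without vehicle replicate 1 and 0.14 without vehicle replicate 3. The 7 untested family genes had at most 34 counts in any library. Among them scl-9 had 8 to 16 counts in vehicle and 0, 0 and 6 with ilimaquinone, and scl-10 had 2 to 6 and 0 to 2. In the other direction scl-26 had 0, 0 and 2 counts in vehicle and 6, 0 and 10 with ilimaquinone. Nothing is read from counts this low.

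**Figure D5:**
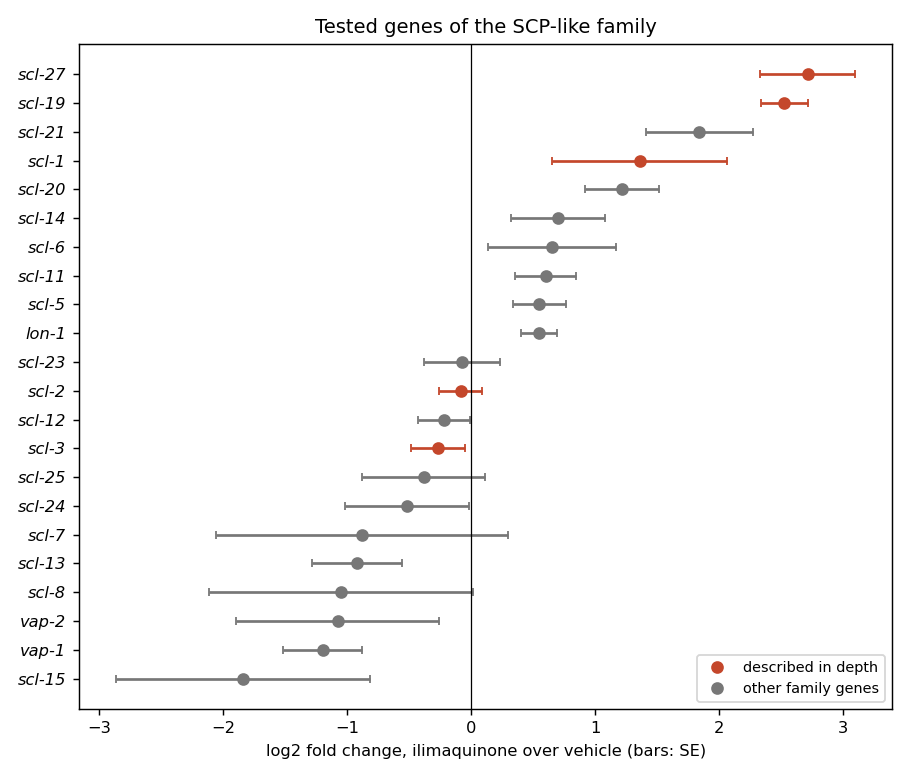
Log2 fold change of ilimaquinone over vehicle (x axis, bars are SE) for the 22 tested family genes (y axis). The 5 genes described in depth are red, the others grey, and the 5 were chosen with these differences known. The highest values are those of scl-27 at 2.71 and scl-19 at 2.52, and the other genes run from -1.84 to 1.84.

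Because scl-1 is known as an output of insulin signalling, the genes of that pathway were set beside it. Of 14 insulin pathway genes, all tested, akt-1, which encodes a kinase that restrains DAF-16, rose (log2 fold change 0.58 ± 0.10, edgeR adjusted p = 0.0464) and 0 fell, against 1.14% of all tested genes called higher and 0.327% lower. Without vehicle replicate 1 akt-1 was also called (log2 fold change 0.65), but not without any other single library, with edgeR adjusted p from 0.0779 to 0.240. At an unadjusted p under 0.05 there were 3 higher and 2 lower, against 21.9% of all tested genes in either direction. The higher ones were pdk-1, akt-1 and akt-2. The lower ones were sgk-1 (log2 fold change -0.48 ± 0.10) and daf-18 (log2 fold change -0.88 ± 0.37), both with non-overlapping groups. In daf-18 vehicle replicate 1 had 145 CPM, and vehicle replicates 2 and 3 had 55.4 and 58.5 CPM. DESeq2 called the same 3 higher and 1 lower, sgk-1, against 10.8%. The receptor gene daf-2 stood at 178 ± 10.5 against 198 ± 16.7 CPM (log2 fold change 0.16 ± 0.10, edgeR adjusted p = 0.377). The gene daf-16 stood at 265 ± 12.3 against 290 ± 11.1 CPM (log2 fold change 0.13 ± 0.08, edgeR adjusted p = 0.392). Of 18 genes known to respond to DAF-16, the superoxide dismutase gene sod-3 and the metallothionein gene mtl-1 rose in edgeR and 0 fell. The shares over all tested genes are those just given, 1.14% and 0.327%. At an unadjusted p under 0.05 there were 6 higher and 2 lower, and DESeq2 called 4 higher and 1 lower, against the same 21.9% and 10.8%. The lower one was fat-7, with the most negative log2 fold change of the 18, -1.99 ± 0.36 (edgeR adjusted p = 0.0538). Its groups did not overlap. The DAF-16 list holds genes of both directions of response. The median log2 fold change was 0.13 for the insulin pathway list and 0.18 for the DAF-16 list. In sod-3 the log2 fold change was 1.74 ± 0.27 (edgeR adjusted p = 0.0398), with non-overlapping groups, where those of scl-1 overlapped. In mtl-1 it was 1.43 (edgeR adjusted p = 0.0365). Both were called without vehicle replicate 1, at 1.49 and 1.23, and neither without any other single library, with edgeR adjusted p from 0.0605 to 0.204 for sod-3 and from 0.0579 to 0.187 for mtl-1.

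Likeness of pattern was measured as Pearson's r of log2 CPM over the 6 libraries, among about 10360 tested genes with a mean of at least 5 CPM. With 6 points that fall into 2 groups such values describe these libraries only, and 45 to 508 genes had r above 0.9 with each of the 5. The 3 genes most like scl-19 were the uncharacterized C02E7.7 (r = 0.999), its neighbour asp-18 (r = 0.999) and the sulfide:quinone oxidoreductase gene sqrd-1 (r = 0.998). For scl-27 they were the tetraspanin gene tsp-2 (r = 0.999), the ubiquinone synthesis gene coq-4 (r = 0.996) and droe-8 (r = 0.994). The value r takes no account of the size of a change. Log2 fold changes were 2.76 for C02E7.7, 2.69 for asp-18 and 0.68 for sqrd-1, beside 2.52 for scl-19. They were 0.53 for tsp-2, 0.36 for coq-4 and 1.33 for droe-8, beside 2.71 for scl-27. The 3 genes most like scl-1 were F09F9.2, F33D4.6 and C26B9.3 (r = 0.996, 0.993 and 0.993). The first of these had 2.72, 5.88 and 1.29 CPM in vehicle and 4.56, 9.53 and 10.3 CPM with ilimaquinone, the same order of libraries within vehicle as scl-1. For scl-2 they were C25H3.7, T20D3.2 and the aspartic protease gene asp-14 (r = 0.987, 0.981 and 0.980). For scl-3 they were the galectin gene lec-12, Y106G6D.6 and the Smad gene sma-2 (r = 0.995, 0.993 and 0.993).

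Between the 5 genes themselves, scl-19 and scl-27 had r = 0.98 over the same 6 libraries. For the adjacent genes r was lower, at 0.56 for scl-1 with scl-2, 0.02 for scl-2 with scl-3 and -0.24 for scl-1 with scl-3. Over 6 libraries in 2 groups, r includes the group difference by which the 5 genes count as chosen. Nothing about shared regulation is therefore read from these values.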

How the data were processed

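The submitters' processing notes name HISAT2 2.1.0, SAMtools 1.9 and bcl2fastq 2.20.0, with build WBcel235. A stranded mRNA kit was used on 1 µg of RNA per library, per the labels' protocols. Which program counted the reads, with what strand option and annotation, is not given in the sources used. The authors deposited gene and transcript tables with columns of read counts, FPKM and TPM per library, per the file headers. The deposited read counts are whole numbers, treated here as estimated counts, since how they were counted is not given. The deposited FPKM was not used further, and the deposited TPM served to compare levels between genes and for 1 alternative test.

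Gene counts were fitted in R 4.3.3 with edgeR 4.0.16 (filterByExpr, TMM, glmQLFit, glmQLFTest, no covariate), with Benjamini-Hochberg adjustment over all 16506 tested genes and a threshold of 0.05, after a test on simulated data. The simulated data gave both groups equal spread and held no outlier such as vehicle replicate 1, so they do not cover these features. Transcripts were fitted likewise for their fold changes. The SE of a log2 fold change is its size over the root of its F statistic. Alternatives used DESeq2 1.42.0, limma 3.58.1 on log2(TPM + 1), other scalings and filters, a replicate block, and each library left out. Members, lists and tests were chosen with earlier results of these data known. Named genes were the 5 members, the family, the nearest genes on each side and the 3 most similar genes per member. Called genes of the insulin and DAF-16 lists were also named, with daf-2, daf-16 and sod-3. Single cell type markers, fat-7, pdk-1, akt-2, sgk-1 and daf-18 were named after their values were seen.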

Additional observations from a re-analysis of the deposited data

How the results depend on the processing

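The log2 fold changes of scl-1, scl-3, scl-19 and scl-27 kept their sign in all 14 alternatives, and that of scl-2 in 13. Settings that leave out 1 library gave 0.92 to 2.32 for scl-1, -0.26 to 0.07 for scl-2, -0.48 to -0.13 for scl-3, 2.36 to 2.63 for scl-19 and 2.50 to 3.17 for scl-27. In these 6 fits 11 to 451 genes were called higher and 0 to 274 lower, against 188 and 54 in all 6 libraries; the family had 1 to 3 called higher and 0 to 2 lower, and its median ran from -0.10 to 0.14. The family counts hold the 5 genes chosen on this difference and support nothing about them. On log2(TPM + 1) scl-27 had 1.73, where the added 1 exceeds its mean vehicle level of 0.688 TPM. DESeq2 called 896 genes higher and 898 lower, in the family 5 and 1. Without a filter 60 and 9 genes were called, in the family 1 higher, and the stricter filter called 94 lower and gave a family median of 0.21, as fewer family genes remained.

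Samples with the same replicate number deviated from their group means with correlations of -0.16, 0.29 and -0.16. Between the groups, samples with different numbers had -0.32 to 0.37. With 3 libraries per group such values cannot decide whether samples were paired. The main test assumed no pairing. With the replicate block 21 genes were called higher and 1 lower, and 0 family genes higher; the log2 fold changes of scl-19 and scl-27 there were 2.53 and 2.77. The cause of these changes was not tested. With 10 to 25 vehicle counts of scl-27, depth limits how closely its vehicle level is known.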
